A study of Mus musculus with 36 samples.

Results

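The genes described here are 42 cell cycle and proliferation genes, chosen by name from the 20720 nuclear genes of the count tables, and the question is which cells of the injured mouse heart held their transcripts, in which group and on which day. They were kept in 3 lists. The mitotic list holds 26 genes of the G2 and M phases, the replication list holds 12 genes of DNA synthesis, and the broad list holds 4 genes (Stmn1, H2afz, Hmgb2 and Cks1b) that rise in dividing cells but are also used outside division. Single cells of the left ventricle were sorted into 36 plates with SORT-seq, a protocol that counts each transcript once through a unique molecular identifier (UMI). All mice were C57BL/6 males aged 8 weeks with no engineered allele in the labels, the study's methods name C57BL/6 J wild type mice for its MI surgery, and the tissue label of all groups is the infarcted region of the left ventricle. For sham surgery there were 4 plates of day 1 and 8 plates of day 14. Ischemia-reperfusion (IR), a 1-hour ligation of the left anterior descending artery, has 9 plates of day 1, 7 of day 3 and 3 of day 14. Myocardial infarction (MI), a permanent ligation of the same artery, was sampled at day 3 (5 plates). Sham plates of day 3 were not analysed here.

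A dividing cell first copies its DNA and then separates the copies. The minichromosome maintenance helicase (Mcm2 to Mcm7) opens the DNA, proliferating cell nuclear antigen (Pcna) holds the polymerase on it, and ribonucleotide reductase (Rrm1, Rrm2) and thymidylate synthase (Tyms) supply the nucleotides. Cyclin B (Ccnb1, Ccnb2) with Cdk1 then starts mitosis, kinesins and centromere proteins move the chromosomes, and the ubiquitin ligase activated by Cdc20 ends it, with Ube2c as its partner enzyme. In the adult mammalian heart most cardiomyocytes no longer divide, whereas fibroblasts, endothelial cells and macrophages can re-enter the cycle after injury.

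Wells with at least 1000 nuclear UMIs were kept as cells, which left 3146 of 13824 wells. Of the 5 MI plates 4 were deeper than every other plate, with 3534480 to 4261077 nuclear UMIs, and replicate 5, with 2420593, lay below IR day 3 replicate 4, with 2798928. The IR day 3 plates began at 28642, and the sham plates held 35450 to 801871. All plates carry 1 library protocol in the labels, which give no batch, and for 4 of 5 MI plates depth and MI cannot be told apart. By the study's text the number of mice was smaller than that of plates in MI, so plates are not all separate animals, and the p-values below may be too small. Replicates 2 and 7 of day 14 sham held copies of the same wells and were counted as 1 plate. Replicate 2 of day 14 sham also shared 16 wells with IR day 3 replicate 6, and IR day 1 replicate 9 shared 16 with replicate 5 and 5 with replicate 8, and the 36 copies among these (18 with at least 1000 UMIs) were left out of every level, share and test. IR day 3 replicate 2 had 0 cells.

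Cells were clustered with 134 cell cycle genes left out, so that the 42 genes did not decide the classes, and clusters were named by marker genes. With the copies still counted, this gave 297 fibroblast-like, 443 endothelial-like, 634 macrophage-like, 1159 cardiomyocyte-like, 156 neutrophil-like, 21 mural-like and 12 erythrocyte-like cells, and 424 cells stayed unnamed. With the cell cycle genes left in, 3084 of 3146 cells kept the same class. All 10 cardiomyocyte markers were raised in the 2 largest cardiomyocyte-like clusters, all 10 fibroblast markers in both fibroblast-like clusters and 8 neutrophil markers in the neutrophil-like cluster. Other clusters rested on fewer markers and are described with the groups they hold. The same fibroblast-like cluster held most of these cells at IR day 1, IR day 3 and MI, led by Cxcl5, Timp1 and Tnc, whereas every sham fibroblast-like cell lay in another, led by Pi16 and Htra3. Most macrophage-like cells lay in different clusters at IR day 1 (led by Cd74 and H2-Aa), IR day 3 (led by Gpnmb) and MI (with C1qa and Pf4 among its leading genes), in which 4, 9 and 10 of 10 macrophage markers were raised. The cluster led by Cd74, which presents antigen with the MHC class II genes, held 70 of 111 macrophage-like cells of IR day 1, 18 of 195 of IR day 3 and 73 of 282 of MI. It also raised 2 of 5 B-cell markers, and its 10 leading genes held 1 of these, Cd79a, and 0 macrophage markers, so its name is uncertain and the macrophage-like comparisons are also given without it and for it alone. Most sham endothelial-like cells lay in a cluster led by Slc26a10 and Cd300lg, and most MI and IR day 1 ones in a cluster led by Plvap and Mest, and all 10 endothelial markers were raised in both. At IR day 3, 22 of 50 lay in another, which raised 7 endothelial and 3 fibroblast markers. Most IR day 1, IR day 3 and MI cardiomyocyte-like cells lay in a cluster led by Sprr1a and Nppa, in which 4 of 10 cardiomyocyte markers were raised, and in the smallest cardiomyocyte-like cluster 6 were.

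Levels are given as UMIs of a gene or list per 10000 nuclear UMIs of the class on a plate, for plates with at least 5 cells of the class. Each UMI counts 1 molecule whatever the transcript's length, so levels can be compared between genes within limits. UMI collisions were not corrected. How reads of H2afz, Stmn1, Hmgb2, Cks1b and Tyms were split with near-identical copies in the genome is uncertain. In such class sums, fewer cells with a transcript and less of it per cell cannot be told apart. H2afz, a histone variant, was the most abundant of the 42 in the fibroblast-like, macrophage-like, endothelial-like and cardiomyocyte-like cells, and Pcna came next in the first 3 of these. Mki67, whose protein Ki-67 coats mitotic chromosomes, Top2a, which untangles DNA, and Stmn1, which destabilises microtubules, were among the next ranks.

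The mitotic list was low in sham and higher on most day 3 plates in the non-muscle classes. Summed list levels are given as description, without a test. In fibroblast-like cells its level was 0.364, 0.446 and 0.95 per 10000 UMIs on the 3 day 1 sham plates. It was 0.125, 0.774, 0.890, 1.38 and 11 on the 5 IR day 1 plates, 1.63, 12.9, 13.9 and 39.7 on the 4 IR day 3 plates, and 12.5, 23.3, 23.6, 27.6 and 32.1 on the 5 MI plates. All MI plates stood above all sham and IR day 1 plates, while the IR day 3 plates overlapped both neighbours. The replication list had another order in the same cells. It was 0.95 to 1.82 in day 1 sham, already 3.50 to 18.4 (mean 10.9 ± 6.72, SD, n = 5) at IR day 1, 2.65 to 12.4 (mean 6.26 ± 4.28, n = 4) at IR day 3 and 11.8 to 19.9 (mean 15.6 ± 3.53, n = 5) in MI.

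**Figure D1:**
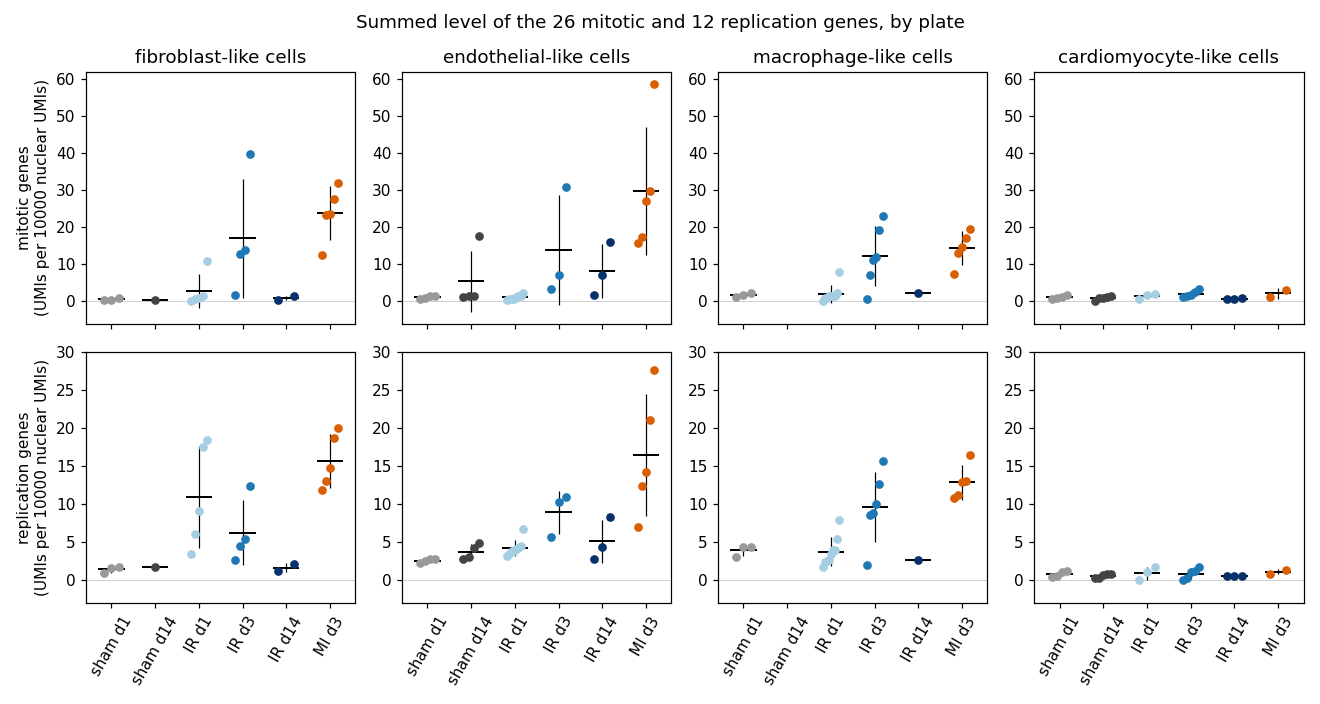
Summed level of the 26 mitotic (top) and 12 replication genes (bottom) in UMIs per 10000 nuclear UMIs, by group and class; each point is 1 plate with at least 5 cells of the class, the horizontal bar is the mean and the vertical line 1 SD to each side. In fibroblast-like cells the IR day 1 plates stand above sham for the replication list (3.50 to 18.4 against 0.95 to 1.82) while 4 of 5 lie at or below 1.38 for the mitotic list, and the MI plates are high for both.

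In macrophage-like cells the mitotic level was 1.73 ± 0.590 (SD, n = 3) in day 1 sham and 2.02 ± 2.32 (n = 9) at IR day 1, against 12.2 ± 8.16 (n = 6) at IR day 3 and 14.4 ± 4.57 (n = 5) in MI. The IR day 3 plates spread from 0.679 to 23.2 and enclosed the MI plates, which ran from 7.50 to 19.7. In endothelial-like cells it was 1.17 ± 0.447 (n = 4) in day 1 sham, 1.08 ± 0.605 (n = 8) at IR day 1, 13.8 ± 14.8 (n = 3) at IR day 3, 8.31 ± 7.33 (n = 3) at IR day 14 and 29.8 ± 17.3 (n = 5) in MI. Day 14 sham endothelial-like cells were at 1.28, 1.36 and 1.41 on 3 plates and at 17.7 on the fourth. Cardiomyocyte-like cells stayed between 0 and 3.41 on every plate of every group.

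A cell was called mitotic when 5 or more of the 26 mitotic genes appeared in 3000 UMIs drawn at random from it, so that MI and other cells were compared at 1 depth and shallower cells were left out. The exact 95% binomial intervals, and the shares that a count of 0 allows, cover counting error only. By this call 47 of 130 MI fibroblast-like cells were mitotic (36.2%, interval 27.9 to 45.0), and 8 of 29 at IR day 3 (27.6%, 12.7 to 47.2). The counts were 1 of 48 at IR day 1 (2.08%, 0.0527 to 11.1) and 0 of 17 in day 1 sham, which allows a share of up to 17.6%. Per plate the share was 25.0% to 42.1% on the 5 MI plates and 33.3% and 42.9% on the 2 IR day 3 plates with at least 5 cells of that depth, so the MI and IR day 3 plates overlapped. The single mitotic IR day 1 cell was on replicate 3, the plate with the mitotic level of 11.

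Endothelial-like cells reached 14 of 50 (28.0%, 16.2 to 42.5) in MI, 2 of 22 (9.09%, 1.12 to 29.2) at IR day 3, 0 of 41 at IR day 1, which allows up to 7.32%, and 0 of 60 in day 1 sham, which allows up to 5.00%. At day 14 there was 1 of 37 in sham (2.70%, 0.0684 to 14.2), on replicate 8, and 1 of 27 after IR (3.70%, 0.0937 to 19.0), on replicate 1. Macrophage-like cells were called mitotic in 36 of 276 in MI (13%, 9.31 to 17.6), 22 of 148 at IR day 3 (14.9%, 9.56 to 21.6) and 1 of 93 at IR day 1 (1.08%, 0.0272 to 5.85). Of the cardiomyocyte-like cells, 0 of 15 in MI were called, which allows up to 20.0%, and 1 of 122 at IR day 3 (0.820%, 0.0208 to 4.48). That well, on replicate 4, held 71 mitotic UMIs of 22 genes among 6603 nuclear UMIs and also markers of another class. In sham, IR day 1 and IR day 14 the count of such cardiomyocyte-like wells was 0 of 89 and 0 of 66 (day 1 and day 14 sham), 0 of 14 and 0 of 147. The looser rule of at least 2 mitotic genes in 1000 drawn UMIs, taken as the mean share over plates, gave the same order among these classes in MI: 34.3% ± 11.2 of fibroblast-like cells (SD, n = 5), 30.7% ± 7.85 of endothelial-like cells (n = 5) and 17.7% ± 3.91 of macrophage-like cells (n = 5). At IR day 3 it gave 20.7% ± 11.9 (n = 4), 13.5% ± 5.63 (n = 3) and 13.9% ± 14.9 (n = 6) for the same classes and 2.05% ± 3.53 (n = 5) for cardiomyocyte-like cells. The last share rests on replicate 7, where 8 of 98 cells passed, and was 0.517% without it. Without thinning the MI shares were 93.5%, 71.2% and 86.6%, at median depths of 45311, 16726 and 22834 UMIs per cell.

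Levels were also read in neutrophil-like cells and in wells under 1000 UMIs. Whether these hold dividing cells was not tested, so they are no measured background. Neutrophils leave the marrow after their last division, and MI neutrophil-like cells, at a median depth of 2224 UMIs, held a mean of 2.98 mitotic UMIs each and a level of 9.22 ± 2.96 (SD, n = 5), against 3.56 ± 2.24 (n = 9) at IR day 1, at a median depth of 1925. The looser rule called 19.0% ± 14.6 of MI neutrophil-like cells (n = 5), above the 17.7% of MI macrophage-like cells, and the strict rule called 2 of 15 (13.3%, 1.66 to 40.5), against 13% of the macrophage-like cells. With at least 3 genes in 1000 UMIs the MI shares were 12.2% of macrophage-like and 2.35% of neutrophil-like cells. The 10 fibroblast markers summed to 32.1 to 72.8 per 10000 UMIs in MI neutrophil-like cells and to 1.07 to 24.1 at IR day 1. Without cells that hold markers of another class the looser rule passed 25.6% of MI neutrophil-like cells, as the mean of the 3 plates left. MI wells with 100 to 1000 UMIs, under the limit set for a cell, held a median of 0.884 mitotic UMIs per well over plates, a level of 13 to 18.5 per 10000. The highest sham plate held 0.111 per well, and the sham plates were at 0 to 3.52 per 10000. Such wells held 0.0732 to 0.409 per well on the 7 IR day 3 plates (1.69 to 10.1 per 10000), above the highest sham plate on 5 of them. UMIs per cell rise with depth, so levels are also given within a range of depths. Among MI cells of 3000 to 10000 UMIs the pooled mitotic level was 9.83 per 10000 in 15 neutrophil-like cells, 5.51 in 50 macrophage-like cells and 9.65 in 9 fibroblast-like cells, and above 10000 UMIs, where no neutrophil-like cell lay, it was 15.6 in 226 macrophage-like and 24.4 in 121 fibroblast-like cells.

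The 180 unnamed MI cells, with a median depth of 1437 UMIs, had a pooled mitotic level of 16.5, and on 2 of 5 plates (9.16 and 18.8) they lay outside the range of the shallow wells. The looser rule passed 80 of them (44.4%), on each plate at least 32.1%, and the strict rule 8 of 25 (32.0%, 14.9 to 53.5). Of the 180, 173 lay in 1 cluster that raised 6 fibroblast markers, had Rrm2 and Cdk1 among its 10 leading genes and stayed unnamed. The shares given for the named classes therefore do not cover every MI cell that passed.

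**Figure D2:**
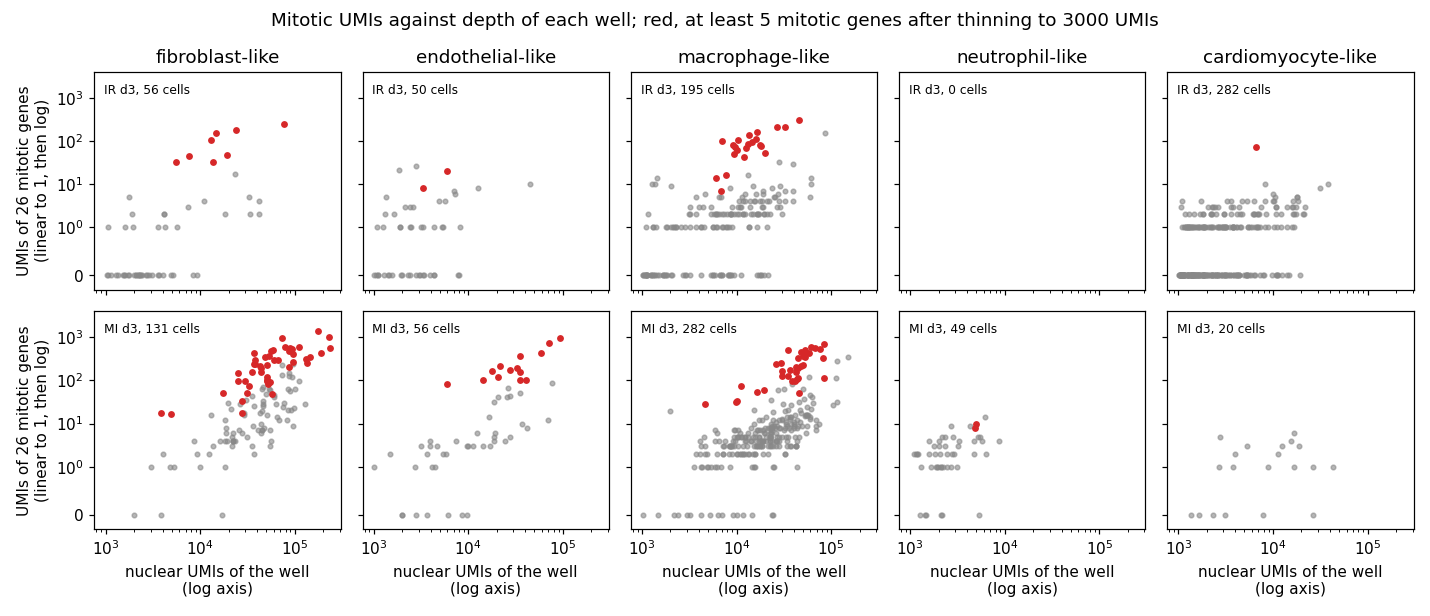
UMIs of the 26 mitotic genes per well (linear to 1, then log) against nuclear UMIs per well (log axis) on IR day 3 plates (top) and MI plates (bottom), 1 panel per class and 1 point per well, with red points for wells with at least 5 mitotic genes in 3000 drawn UMIs. In MI 47 fibroblast-like, 14 endothelial-like, 36 macrophage-like and 2 neutrophil-like wells are red, the neutrophil-like wells lie at lower depths (median 2224 UMIs) than those of these 3 classes (medians of 16726 to 45311), and no neutrophil-like cell was found on the IR day 3 plates.

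Mitotic transcripts were unevenly spread over cells. The 10% of cells with the most held 86.6% of all mitotic UMIs of IR day 3 fibroblast-like cells, 82.1% in IR day 3 macrophage-like cells, 77.4% in MI macrophage-like cells and 52.9% in MI fibroblast-like cells. In MI neutrophil-like cells it was 34.2%. These shares are not matched for depth, with median depths of 3312 and 8383 UMIs in the IR day 3 fibroblast-like and macrophage-like cells, 45311 and 22834 in those of MI, and 2224 in the neutrophil-like cells, so they do not order the classes. Cells with at least 3 replication genes in the 3000 UMIs but fewer than 5 mitotic genes made up 11 of 48 IR day 1 fibroblast-like cells, where only 1 cell had both. At IR day 3 they made up 3 of 29, with 2 more that had both and 6 with mitotic genes alone, and in MI 34 of 130, with 31 that had both and 16 with mitotic genes alone. Most IR day 1 fibroblast-like cells past either rule therefore held replication genes alone, and those of MI were spread over the 3 kinds.

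**Figure D3:**
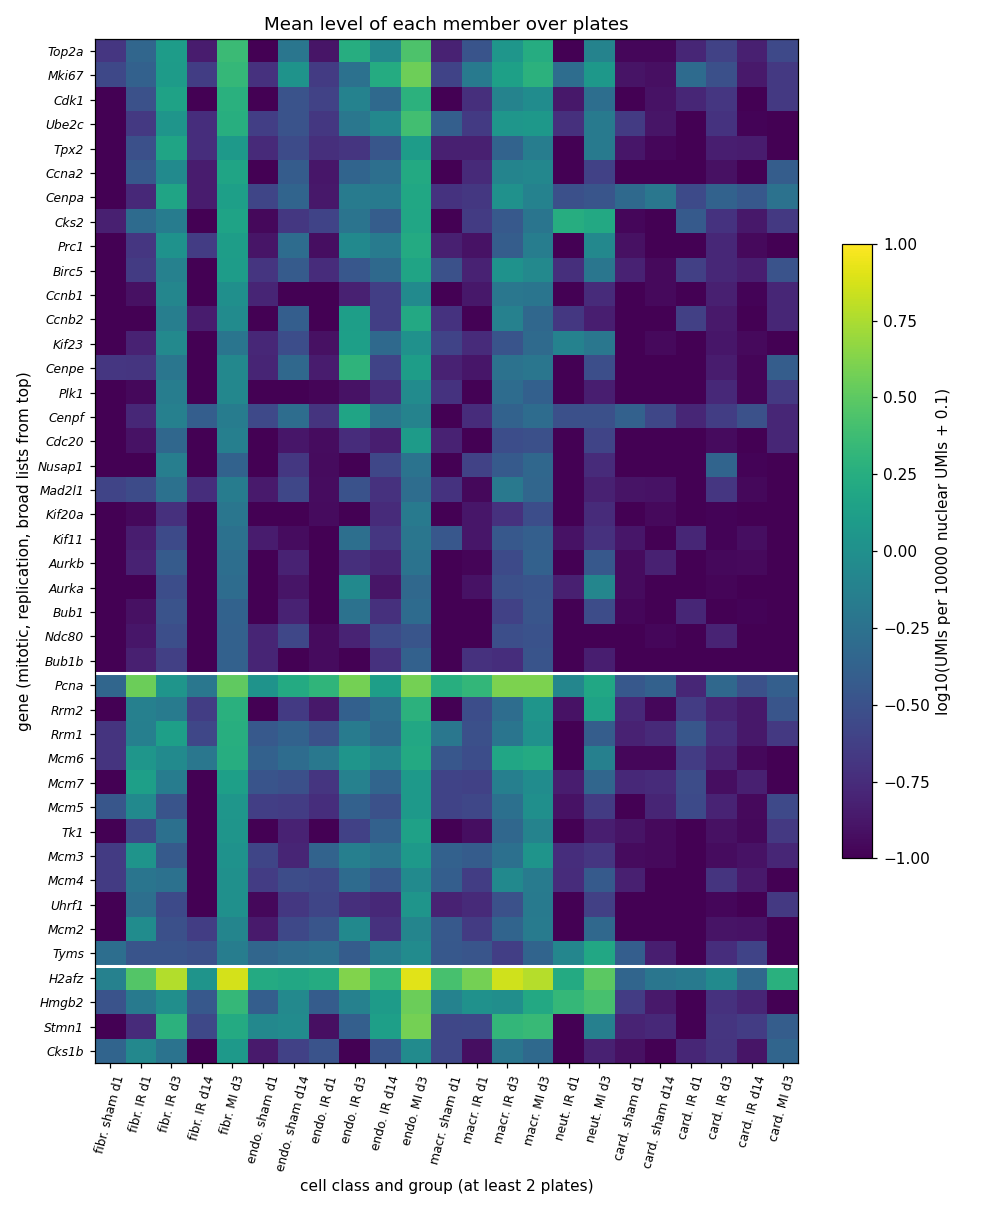
Mean level over plates of each of the 42 genes, as log10 of UMIs per 10000 nuclear UMIs with 0.1 added, for each class and group with at least 2 plates, with the mitotic, replication and broad lists from top to bottom. H2afz and Pcna are bright in most columns, the MI columns of fibroblast-like, endothelial-like and macrophage-like cells are filled over the mitotic and replication lists, the IR day 1 fibroblast-like column is filled over the replication list, and the cardiomyocyte-like columns are dark for most genes.

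Fibroblast-like cells were compared from sham to IR day 1 and from IR day 1 to IR day 3. Of the 42 genes, 33 passed the filter on low counts in these cells, among 5970 genes tested. Summed counts per plate were tested with edgeR's quasi-likelihood test, all groups in 1 fit and Benjamini-Hochberg adjustment over all genes tested. The IR day 1 plates serve as reference in several comparisons, which are therefore not independent of each other. From day 1 sham (3 plates) to IR day 1 (5 plates), 5 of the 33 rose and 0 fell, where 11.9% of all tested genes rose and 8.19% fell, so the share that rose was near that of all genes. The 5 were Pcna, H2afz and the helicase subunits Mcm2, Mcm3 and Mcm7. The 10 cardiomyocyte markers summed to 22 to 117 per 10000 UMIs in the day 1 sham fibroblast-like cells and to 4.11 to 8.83 at IR day 1, and the 10 fibroblast markers to 305 to 478 and 76.2 to 281. Without cells that hold markers of another class Pcna, H2afz and Mcm7 passed, and Mcm2 and Mcm3 did not (adjusted p = 0.101 and 0.0878 by edgeR). The loss of these calls does not show that the changes of Mcm2 and Mcm3 shrank. Pcna was at 0, 0.317 and 0.744 per 10000 on the sham plates and at 2.04, 2.25, 2.56, 5.01 and 5.27 on the IR day 1 plates, without overlap (log2 change 2.99, SE 0.64, adjusted p = 0.00198). H2afz went from 0.595, 0.633 and 0.727 to 1.37, 1.78, 1.99, 3.85 and 5.16 (log2 change 2.28, SE 0.53, adjusted p = 0.00406). Mcm2 and Mcm7 had 0 UMIs in day 1 sham and 58 and 85 at IR day 1, so they were at least 3.64-fold and 5.33-fold higher than 3 counts over the sham plates would give. Mcm3 was at 0, 0 and 0.364 in sham and at 0.25 to 1.89 at IR day 1 (log2 change 3.75, SE 1.16, adjusted p = 0.0245).

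No mitotic gene passed in that comparison, and 20 of the 33 genes had 0 UMIs on the sham plates, whose fibroblast-like cells number 5, 7 and 9 per plate. Their median log2 change was 3.45 as fitted and 0.79 with those genes at their lower bound, beside 0.23 over all genes. Mki67 was at 0, 0.149 and 0.364 in sham and at 0, 0, 0, 0.111 and 1.48 at IR day 1, and Ccnb1 was at 0 on all sham plates and 4 of 5 IR day 1 plates. Values for Top2a (adjusted p = 0.485), Cdk1 (0.365) and Mcm5 (0.0879) did not pass by edgeR. Outside the 42, cyclin D1 (Ccnd1), which carries cells out of rest, rose by 2.94 on the log2 scale (SE 0.64, adjusted p = 0.00234), Cdk4, its partner kinase, rose by 1.92, and the cyclin-dependent kinase inhibitors Cdkn1b and Cdkn1c fell by 2.09 and 3.93. They were 2 of 4 tested genes of G1 entry that rose and 2 of 11 tested brakes that fell, with Trp53 as the only brake that rose, and 0 genes of G1 entry that fell. Leaving out 1 sham plate left 2 (replicate 3) or 3 (replicate 1) of the 5 calls.

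From IR day 1 to IR day 3 (4 plates), 15 of the 33 rose and 4 fell, where 11.5% of all tested genes rose and 10.6% fell. The share that fell was near that of all genes. The median log2 change was 1.81 over the 33 and 0.03 over all genes. All 4 that fell are replication genes: Mcm3 fell by 2.29 (SE 0.62, adjusted p = 0.0110), Mcm2 by 2.19, Mcm5 by 2.14 (SE 0.64, adjusted p = 0.0197) and Pcna by 1.58 (SE 0.41, adjusted p = 0.00840) on the log2 scale. Pcna was at 0.360, 0.814, 1.24 and 1.62 on the IR day 3 plates, all under the lowest IR day 1 plate at 2.04. Mcm5 was at 0.0900, 0.144, 0.203 and 0.497 on them, against 0, 0.718, 1.04, 1.09 and 1.11 at IR day 1, so 1 IR day 1 plate lay below all 4. Mcm3 overlapped in 1 IR day 3 plate at 0.746 and was at 0, 0.144 and 0.180 on the other 3.

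Of the 15 that rose, 13 are mitotic and the other 2 are Stmn1 and H2afz. Cenpa, the histone variant of centromeres, was at 0, 0, 0, 0.0726 and 0.274 on the IR day 1 plates and at 0.203, 1.15, 1.49 and 2.61 on the IR day 3 plates (log2 change 4.12, SE 0.68, adjusted p = 2.52e-04). Stmn1 was at 0 on 4 IR day 1 plates and 0.384 on 1, and at 0.407, 1.29, 2.34 and 3.23 at IR day 3 (log2 change 4.15, SE 0.65, adjusted p = 1.59e-04). Ccnb1 was at 0.110 on 1 of 5 IR day 1 plates and 0 on the others, and at 0, 0.249, 0.611 and 2.07 at IR day 3 (log2 change 4.88, SE 1.03, adjusted p = 0.00201). Ccnb2, which had 0 UMIs on all IR day 1 plates, was at 0.203 to 0.994 at IR day 3, at least 12.1-fold higher than 3 counts would give, and Nusap1, a spindle protein, was likewise at least 17.3-fold higher but on 2 of 4 plates. Plk1, the kinase that drives mitotic entry, rose by 5.32 (SE 1.24, adjusted p = 0.00445), Cdk1 by 2.55 (SE 0.81, adjusted p = 0.0271), and Birc5 and Ube2c by 2.45 and 3.14. Mki67 and Top2a had log2 changes of 1.93 (adjusted p = 0.0716) and 1.81 (adjusted p = 0.130) and did not pass by edgeR, with IR day 1 replicate 3 at 1.48 and 1.70.

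**Figure D4:**
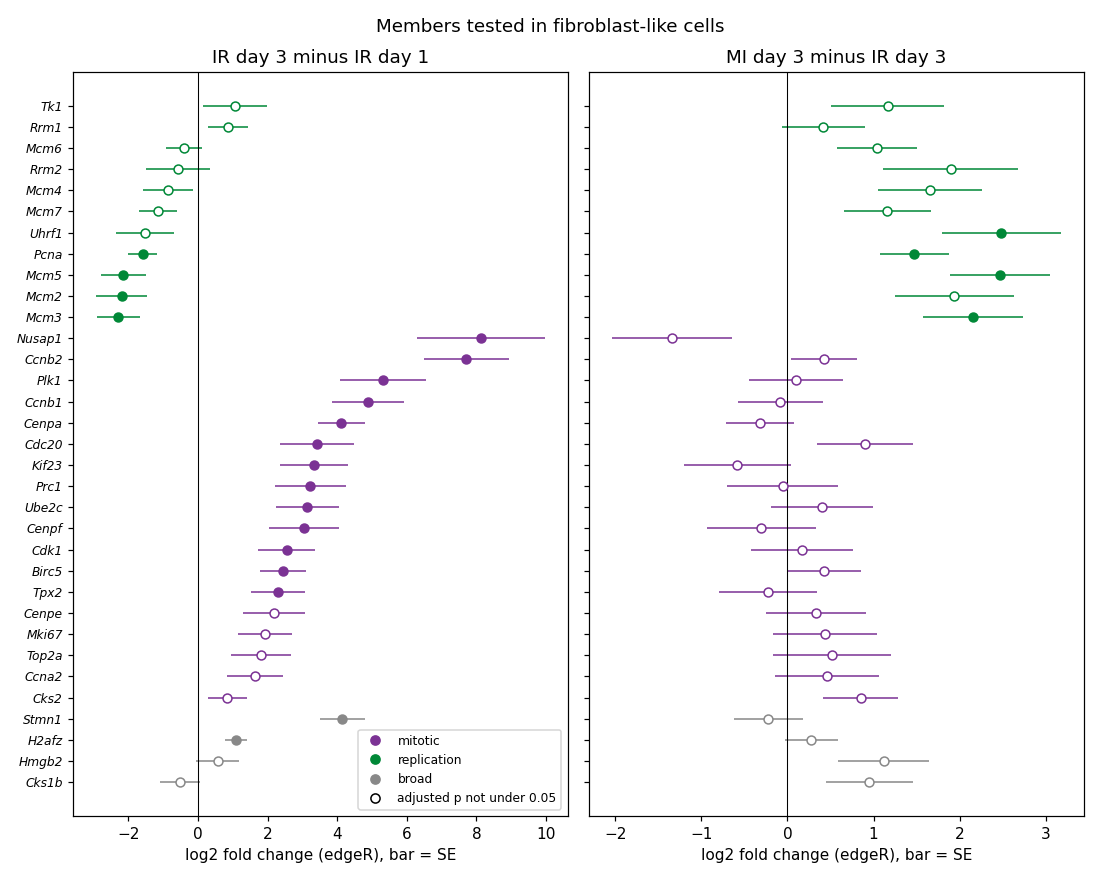
Log2 change of the 33 tested genes in fibroblast-like cells, IR day 3 minus IR day 1 (left) and MI minus IR day 3 (right, both at day 3), with the standard error as a bar and filled points for genes that passed. On the left 13 filled mitotic genes lie above 0 and Pcna, Mcm2, Mcm3 and Mcm5 below it, on the right the filled genes are Mcm3, Mcm5, Pcna and Uhrf1 above 0, and the left values of Ccnb2 and Nusap1, which had 0 UMIs at IR day 1, are fitted and are no bounds.

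Markers of other classes moved with this result. The summed level of 10 macrophage markers in fibroblast-like cells was 0.145 to 2.54 per 10000 UMIs at IR day 1, 0.497, 1.80 and 3.05 on 3 IR day 3 plates and 27.4 on replicate 4, and 2.92 to 3.54 in MI, against 131 to 206 in the macrophage-like cells of IR day 3. From IR day 1 to IR day 3, 3 of 5 tested phagocytic genes rose in the fibroblast-like cells (Gpnmb by 7.86). The 10 cardiomyocyte markers summed to 4.11 to 8.83 at IR day 1, 14.2 to 81.0 at IR day 3 and 3.84 to 5.53 in MI, and the 10 fibroblast markers to 76.2 to 281, 743 to 1051 and 343 to 412. Without cells that carry markers of another class, 7 genes rose and 2 fell in place of 15 and 4. These are counts of calls, which do not by themselves show that the changes shrank, and the share of all genes in that refit is not given. The 3 other IR day 3 plates had mitotic levels of 1.63, 12.9 and 39.7.

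The counts changed with the cells and plates used. With at least 10 cells per plate, 0 of the tested genes rose and 4 fell, but this leaves 1 IR day 1 plate, replicate 3, with 13 cells and the mitotic level of 11, taken to vary as the remaining groups do. Leaving out IR day 3 replicate 7, the plate with the mitotic level of 39.7, left 6 that rose and 2 that fell, and leaving out replicate 4, the plate with the macrophage markers, left 13 and 1. Among genes outside the 42, Ccnd1 fell by 2.02 (SE 0.42, adjusted p = 0.00165) and Myc by 1.96 from IR day 1 to IR day 3, both in the group of 4 tested genes of G1 entry, of which 0 rose. Of the 11 tested brakes Cdkn1c and Ccng1 rose and Trp53 fell.

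The promoters of the 3 genes with the smallest p in each direction that have 1 window in RefSeq are shown, all 3 that rose being mitotic and all 3 that fell replication genes, because these genes passed in opposite directions in the same cells. The share of tested members that fell was near that of all genes. Fewer fell without cells that hold markers of another class or without IR day 3 replicate 4. Each window is the 250 bases before 1 annotated start of the gene in RefSeq (GRCm38.p6), written 5′ to 3′ on the gene's strand. The annotated genes of Cenpa and Mcm5 begin inside their windows, at positions 30666877 and 75109468, so the last bases of these windows lie in the gene. Capitals mark 3 motifs on either strand: the CCAAT box (CCAAT), the cell cycle homology region or CHR (TTTGAA), and the E2F site (TTTCCCGC, TTTCGCGC, TTTGCCGC or TTTGGCGC).
Cenpa, chr5:30666636-30666885, plus strand: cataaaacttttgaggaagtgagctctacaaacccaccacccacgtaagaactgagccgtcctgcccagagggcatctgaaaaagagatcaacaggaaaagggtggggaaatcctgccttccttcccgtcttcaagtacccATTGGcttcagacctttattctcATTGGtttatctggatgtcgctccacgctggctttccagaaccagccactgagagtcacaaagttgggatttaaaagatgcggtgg
Ccnb2, chr9:70421555-70421804, minus strand: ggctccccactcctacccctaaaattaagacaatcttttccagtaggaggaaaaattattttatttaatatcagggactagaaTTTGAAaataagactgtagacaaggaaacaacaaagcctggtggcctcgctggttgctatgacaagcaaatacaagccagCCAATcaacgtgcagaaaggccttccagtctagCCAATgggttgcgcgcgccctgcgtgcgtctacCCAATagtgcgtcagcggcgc
Ccnb1, chr13:100786487-100786736, minus strand: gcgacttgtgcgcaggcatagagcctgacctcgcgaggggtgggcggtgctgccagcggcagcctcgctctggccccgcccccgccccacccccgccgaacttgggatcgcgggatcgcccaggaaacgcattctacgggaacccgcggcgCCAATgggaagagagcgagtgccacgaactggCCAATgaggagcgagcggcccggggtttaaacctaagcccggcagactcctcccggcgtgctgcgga
Pcna, chr2:132253181-132253430, minus strand: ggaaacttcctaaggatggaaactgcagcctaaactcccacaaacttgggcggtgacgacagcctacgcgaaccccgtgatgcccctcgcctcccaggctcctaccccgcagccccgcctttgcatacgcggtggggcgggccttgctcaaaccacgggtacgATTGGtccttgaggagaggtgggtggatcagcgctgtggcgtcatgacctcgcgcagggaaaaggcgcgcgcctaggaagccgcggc
Mcm3, chr1:20820313-20820562, minus strand: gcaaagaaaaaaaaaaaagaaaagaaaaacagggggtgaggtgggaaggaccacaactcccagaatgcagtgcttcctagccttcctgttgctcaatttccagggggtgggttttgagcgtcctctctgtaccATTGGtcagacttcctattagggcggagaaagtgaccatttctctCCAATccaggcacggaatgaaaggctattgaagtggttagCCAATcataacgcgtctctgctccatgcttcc
Mcm5, chr8:75109259-75109508, plus strand: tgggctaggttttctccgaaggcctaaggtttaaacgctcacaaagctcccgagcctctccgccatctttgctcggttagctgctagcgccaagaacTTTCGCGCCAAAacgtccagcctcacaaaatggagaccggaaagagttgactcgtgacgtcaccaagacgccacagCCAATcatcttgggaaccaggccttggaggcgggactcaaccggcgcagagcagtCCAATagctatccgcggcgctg
All 6 windows hold a CCAAT box. Of the 42 genes, 35 have a window (a gene with more than 1 counts if any holds the letters), and the CCAAT box was in 18 of 22 mitotic and 9 of 11 replication promoters, against 33.85% of 32851 windows of all genes. The CHR letters were in 8 of 22 mitotic and 1 of 11 replication promoters (all windows 16.0%), Ccnb2 among the mitotic ones. The E2F letters were in 1 of 22 mitotic and 4 of 11 replication promoters (all windows 1.86%), and Mcm5 holds 2 overlapping matches, 1 on each strand. These matches describe the letters and do not show that a factor binds there.

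MI fibroblast-like cells combined high levels of both lists. Against IR day 1, 22 of the 33 rose and 0 fell, where 4.52% of all tested genes rose and 3.79% fell, with a median log2 change of 2.23 beside 0.02 over all genes. The groups differ in day as well as in ligation. Calls fell to 11 without cells that hold markers of another class, to 14 with DESeq2 and lower still with the replicate number as a block. Ccnb2 was at 0.611 to 1.08 on the MI plates, at least 18.7-fold higher than 3 counts on the IR day 1 plates would give. Plk1 rose by 5.41 (SE 1.03, adjusted p = 0.00281), Ccnb1 by 4.80, Cdc20 by 4.31, Cenpa by 3.80, Cdk1 by 2.72 and Mki67 by 2.36 (SE 0.65, adjusted p = 0.0230). Most replication genes did not pass here. Pcna, at 2.53 to 4.25 on the MI plates, had a log2 change of -0.11 (SE 0.32, adjusted p = 0.882), and Mcm5 of 0.33 (SE 0.34, adjusted p = 0.606) by edgeR, and Tk1, thymidine kinase, was the 1 replication gene that rose (by 2.23). Leaving out IR day 1 replicate 5, 6, 7 or 9 or MI replicate 1, 4 or 5 left 11 to 14 of the calls, and with at least 10 cells per plate, which leaves IR day 1 replicate 3 alone, 0 passed.

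Against IR day 3, at the same day, 4 of the 33 rose in MI and 0 fell, where 3.32% of all tested genes rose and 5.26% fell, and all 4 are replication genes. Mcm5 was at 0.83, 0.876, 0.944, 1.25 and 1.25 on the MI plates and at most 0.497 at IR day 3 (log2 change 2.47, SE 0.58, adjusted p = 0.00821). Pcna was at 2.53 or more on every MI plate and at most 1.62 at IR day 3 (log2 change 1.47, SE 0.40, adjusted p = 0.0213). Mcm3 rose by 2.16 (SE 0.58, adjusted p = 0.0202), and Uhrf1, which copies DNA methylation marks, by 2.49 (SE 0.69, adjusted p = 0.0277). Mitotic genes overlapped: Mki67 was at 1.31 to 2.56 in MI and 0 to 3.24 at IR day 3 (log2 change 0.43, adjusted p = 0.737), and Top2a, Cdk1 and Ccnb1 had log2 changes of 0.52, 0.17 and -0.08 that did not pass by edgeR. The median over the 33 was 0.43, beside 0.03 over all genes. Leaving out IR day 3 replicate 3, 4 or 7 left 1 of the 4 calls each time. Ccnd1 also rose, by 1.76 (SE 0.41, adjusted p = 0.00755), and Cdkn1c fell by 3.07.

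In macrophage-like cells 25 of the 42 passed the filter, among 5135 genes tested. From IR day 1 (9 plates) to IR day 3 (6 plates) 21 of the 25 rose and 0 fell, where 14.4% of all tested genes rose and 12.1% fell, with a median log2 change of 3.14 beside 0.05 over all genes. Ccnb2 was at 0 on 8 of 9 IR day 1 plates and 0.0327 on 1, and at 0, 0.244, 0.339, 0.449, 1.13 and 1.76 at IR day 3 (log2 change 5.53, SE 0.81, adjusted p = 7.71e-06). Birc5, which guards the spindle midzone, rose by 4.42 (SE 0.67, adjusted p = 1.23e-05). Stmn1 had its lowest, median and highest plates at 0, 0.0605 and 0.665 at IR day 1 and at 0, 1.45 and 6.34 at IR day 3 (log2 change 3.98, SE 0.57, adjusted p = 5.40e-06). Cdk1, at a median of 0 with a highest plate of 0.317 at IR day 1, was at 0.340 to 1.23 at IR day 3, without overlap (log2 change 3.20, SE 0.50, adjusted p = 2.45e-05).

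These counts pool clusters that the groups share unevenly. In the cluster led by Cd74 alone (8 IR day 1 plates against 2 of IR day 3), 13 of 20 tested genes rose and 0 fell, where 3.07% of all tested genes rose and 1.27% fell, with H2afz (log2 change 2.19, adjusted p = 6.10e-04 by edgeR), Ube2c and Cenpa first. With that cluster left out, IR day 1 kept 1 plate with 5 or more cells, so only the size of the change is given. The median log2 change over 36 tested genes was 2.86, beside 0.02 over all genes. Markers of other classes also lay at other levels. The 10 fibroblast markers had their lowest, median and highest plates at 0.104, 0.859 and 6.57 per 10000 UMIs at IR day 1, 2.82, 9.42 and 14.9 at IR day 3 and 7.28, 11.2 and 22.2 in MI. The 10 cardiomyocyte markers were at 3.15, 7.32 and 12.6, at 8.81, 28.0 and 41.6, and at 3.69, 4.69 and 8.97 in the same order. Without cells that hold markers of another class 22 and 23 of the 42 passed at IR day 3 and in MI against IR day 1, with the shares of all genes not given. The part of these markers was otherwise not tested.

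Replication genes also rose at day 3 in these cells. Pcna had a lowest, median and highest plate of 1.00, 1.56 and 3.99 at IR day 1 and 0.679, 4.37 and 5.29 at IR day 3 (log2 change 1.10, SE 0.26, adjusted p = 0.00205). Mcm6 went from a median of 0 to one of 1.14 (log2 change 2.55, SE 0.45, adjusted p = 1.01e-04), and Mcm5 rose by 1.19 (SE 0.40, adjusted p = 0.0277). With the Cd74 cluster left out, which leaves 1 IR day 1 plate, these 3 had log2 changes of 0.60, 1.08 and 0.06. In that cluster alone Mcm6 passed (adjusted p = 0.0490 by edgeR). Hmgb2, Mcm3, Mcm4 and Mcm7 had log2 changes of 0.04, 0.82, 1.37 and 1.33 and did not pass. The difference between the classes was tested directly over 3378 genes as an interaction, in which 10 of the 42 could be tested and 1 passed. Where 0.74% of all tested genes came out higher and 0.444% lower in fibroblast-like cells, Pcna came out lower, by 2.70 on the log2 scale (SE 0.55, adjusted p = 0.0109 by edgeR). It did not pass with the Cd74 cluster left out (log2 difference -2.02, adjusted p = 0.611 by edgeR) or alone (-2.80, adjusted p = 0.190 by edgeR). Mcm6, at -3.04, did not pass (SE 0.88, adjusted p = 0.0713 by edgeR).

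Between MI and IR day 3, at the same day, few of the genes passed in macrophage-like cells. Of the 25, 2 rose (Mcm3 by 1.02, SE 0.30, adjusted p = 0.0270; Mcm5 by 0.98, SE 0.29, adjusted p = 0.0271) and 0 fell, where 4.79% of all tested genes rose and 4.42% fell. Mcm5 was at 0.649, 0.847, 0.885, 0.892 and 1.16 on the MI plates and at 0.308, 0.339, 0.340, 0.488, 0.506 and 0.705 at IR day 3, with 1 MI plate below the highest IR day 3 plate. The other 23 did not pass, with Mki67 at a log2 change of 0.18 (SE 0.34), Top2a at 0.45 (SE 0.41), Cdk1 at 0.11 (SE 0.30), Pcna at -0.06 (SE 0.27) and Ccnb1 at -0.01 (SE 0.42). The median over the 25 was 0.18, beside -0.03 over all genes. Without MI replicate 2 or 4, or IR day 3 replicate 4 or 7, 0 genes passed, and without MI replicate 1 or 3, 1 did.

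The count depended on the clusters used. With the cluster led by Cd74 left out (5 MI and 6 IR day 3 plates), 10 of 36 tested genes rose in MI and 0 fell, where 7.95% of all tested genes rose and 5.69% fell. They were the replication genes Uhrf1 (log2 change 2.04, adjusted p = 2.77e-04 by edgeR), Mcm5 (1.23, adjusted p = 5.88e-04 by edgeR), Mcm2, Mcm3, Mcm4, Mcm7, Rrm2 and Tk1, the chromatin protein Hmgb2 and the spindle protein Tpx2. In the Cd74 cluster alone, with 2 IR day 3 plates, 0 of 20 rose and 1 fell, where 0.197% rose and 0.675% fell, namely Ube2c (log2 change -2.92, adjusted p = 0.00941 by edgeR), which was at 0.57 with the cluster left out. Hmgb2, Mcm5, Mcm7, Rrm2 and Tk1, which rose with it left out, were at -0.41 to -1.54 in it and did not pass. The summed mitotic level of this cluster was 22 and 42.3 per 10000 UMIs on those IR day 3 plates, 3.43 to 13.2 on the 5 MI plates and 0.266 to 9.05 on the 8 IR day 1 plates. In the other clusters together it was 0.510 to 21.4 on the 6 IR day 3 plates and 7.15 to 23.3 on the 5 MI plates.

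Against IR day 1, 24 of the 25 rose in MI and 0 fell, where 4.17% of all tested genes rose and 2.9% fell, led by Stmn1 (log2 change 4.13, SE 0.52, adjusted p = 5.82e-06 by edgeR) and Cdk1 (3.31, SE 0.45, adjusted p = 3.65e-05 by edgeR). H2afz alone of the 25 did not pass there, at 0.74, and the median was 3.14 beside 0.02 over all genes. With the Cd74 cluster left out, which leaves 1 IR day 1 plate, the median log2 change over 36 tested genes was 3.41, beside 0.05 over all genes. In that cluster alone 1 of 20 rose, Stmn1, and 0 fell, where 0.956% rose and 0.253% fell. The median there was 1.87, beside -0.01 over all genes.

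In endothelial-like cells 20 of the 42 passed the filter, among 3303 genes tested. In MI against both sham groups all 20 rose, where 18.6% of all tested genes rose and 19% fell, with a median log2 change of 3.27 beside 0.03 over all genes. Rrm2 was at 0 on 4 of 4 day 1 sham plates and 2 of 4 day 14 sham plates, with 0.224 and 0.253 on the other 2, and at 0.749, 1.57, 1.59, 2.58 and 2.62 on the MI plates (log2 change 5.92, SE 0.75, adjusted p = 2.26e-07). Top2a was at 0 on 7 sham plates, 2.02 on day 14 replicate 8, and at 0, 2.45, 2.48, 2.75 and 5.73 in MI (log2 change 5.48, SE 0.82, adjusted p = 3.32e-06). Mki67 was at 0 to 0.471 on 7 sham plates, 3.36 on that same replicate, and at 1.5 to 7.42 in MI (log2 change 3.63, SE 0.57, adjusted p = 4.58e-06). Pcna rose by 1.55 (SE 0.31, adjusted p = 1.68e-04 by edgeR) and Cdk1 by 5.49. Without cells that carry markers of another class 32 of 32 tested passed, and 13 passed without MI replicate 1. Shares of all genes in these refits are not given. Markers moved here too: 10 cardiomyocyte markers summed to 140 to 442 per 10000 UMIs in sham endothelial-like cells and to 3.20 to 5.39 in MI, and 10 fibroblast markers to 3.32 to 13.7 and 13.1 to 33.6. Day 14 sham replicate 8 had 33.6 of the 10 macrophage markers, against 0.390 to 1.02 on the other 3 day 14 plates.

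At IR day 3 (3 plates) 3 of the 20 rose against both sham groups and 0 fell, where 2.18% of all tested genes rose and 0.908% fell, with a median log2 change of 1.51 beside -0.04 over all genes. Pcna was at 2.19, 3.42 and 5.62 on the IR day 3 plates and at 0.653 to 2.02 on the 8 sham plates (log2 change 1.67, SE 0.41, adjusted p = 0.0172). Mcm3 rose by 2.88 and H2afz by 1.5 (adjusted p = 0.0392 and 0.0420 by edgeR). The call count fell to 1 without any 1 of IR day 3 replicates 4 and 7, sham replicates 3 and 4 of day 1 and sham replicates 1 and 5 of day 14, and rose to 7 without day 14 sham replicate 8. The 10 fibroblast markers summed to 30.8, 52.6 and 186 per 10000 UMIs on the IR day 3 plates against 3.32 to 13.7 in sham, the macrophage markers to 2.28, 11 and 19.0 against 0.201 to 33.6, and the cardiomyocyte markers to 120 to 460 against 140 to 442, and without cells that hold markers of another class 2 genes rose, among which Mcm3 (adjusted p = 0.0132 by edgeR) but not Pcna or H2afz (adjusted p = 0.471 and 0.716). MI against IR day 3 gave 4 that rose, Stmn1 by 3.03, Hmgb2 by 2.79, Ube2c by 3.35 and Mki67 by 2.56 (SE 0.83, adjusted p = 0.0462 by edgeR), and 0 that fell, where 2.6% of all tested genes rose and 6.48% fell (median 1.95, beside 0.10 over all genes). None passed once cells with markers of another class were left out, 1 passed without IR day 3 replicate 4 and 2 without MI replicate 1. A lost call does not by itself show a smaller change. Pcna had a log2 change of -0.12 there (adjusted p = 0.917 by edgeR).

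At IR day 1 against day 1 sham, 0 of the 20 rose in endothelial-like cells and 1 fell by edgeR, where 6.39% of all tested genes rose and 9.54% fell. An unadjusted p under 0.05 was found for 4 of the 20 and for 974 of all 3303 tested genes. The median log2 change was 0.15, beside -0.03 over all genes, and without IR day 1 replicate 7, 1 rose and 1 fell. The 1 gene was Stmn1, at 0.501, 0.712, 0.853 and 0.960 on the day 1 sham plates and at 0 on 6 of 8 IR day 1 plates, with 0.0551 and 0.115 on the other 2, without overlap (log2 change -4.16, SE 0.82, adjusted p = 4.88e-04). The 10 cardiomyocyte markers summed to 153 to 204 per 10000 UMIs in these sham cells and to 6.18 to 121 at IR day 1, the 10 fibroblast markers to 5.61 to 12.6 and 1.56 to 13.9, and the 10 macrophage markers to 0.201 to 5.15 and 0.475 to 7.66, and 3 of 5 tested genes of recruited macrophages rose. Without cells that hold markers of another class Stmn1 still passed (log2 change -4.31, adjusted p = 9.43e-04 by edgeR). Pcna, at 0.653 to 1.40 in sham and 1.38 to 3.11 at IR day 1, did not pass (log2 change 0.82, adjusted p = 0.152 by edgeR), and Cdk1 did not either (adjusted p = 0.0796). Stmn1 has a near-identical copy in the genome, as have H2afz, Hmgb2, Cks1b and Tyms, and how their reads were split is uncertain.

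In cardiomyocyte-like cells 2 of the 42, H2afz and Cenpa, passed the filter, among 4208 genes tested. H2afz rose in MI, where it was at 1.36 and 2.15 on the 2 plates, against 0.253 to 0.911 on the 9 sham plates (log2 change 1.56, SE 0.51, adjusted p = 0.0125). The median of all genes lay at -0.22 in that comparison, in which 14.1% of all tested genes rose and 22.6% fell. It rose at IR day 3, at 0, 0.739, 0.959, 1.15 and 1.19, by 1.25 (SE 0.36, adjusted p = 0.0170), where 4.23% of all tested genes rose and 2.12% fell. Both calls were lost when single plates were left out, the first without MI replicate 2 and the second without any 1 of IR day 3 replicates 4 and 7, sham replicate 3 of day 1 and sham replicate 1 of day 14. The IR day 3 call was also absent with DESeq2 and without cells that hold markers of another class. In cardiomyocyte-like cells the 10 fibroblast markers summed to 1.65 to 7.22 per 10000 UMIs in sham, 6.66 to 37.2 at IR day 3 and 7.22 and 22.2 in MI, and the 10 macrophage markers to 0 to 1.47, 2.40 to 13.7, and 1.65 and 4.53, and their part was otherwise not tested. Cenpa had log2 changes of -0.97 and -0.47 and did not pass. At IR day 14 against day 14 sham neither passed by edgeR, where 0.166% of all tested genes rose and 0.0475% fell, 9 genes in all, and 1 of the 2, with 202 of all genes, had an unadjusted p under 0.05. DESeq2 also called 0. In neutrophil-like cells 0 of the 42 passed the filter, and no test was made.

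Within the MI plates, macrophage-like and fibroblast-like cells with at least 2 mitotic genes in 3000 drawn UMIs were compared with the other cells of their class on the same plate, with the plate as a block. The same rule passed 10 of 15 MI neutrophil-like cells of that depth, so whether it marks dividing cells alone is uncertain. Mitotic genes chose the cells, so the 42 genes and other genes that cycle with them, regulators and inhibitors included, give no result here. Counts are given for genes outside the lists of the 42 and of 70 further cell cycle genes. These outside counts still hold genes of G1 entry, regulators, brakes and cell cycle genes in no list. Kif15 and Incenp in macrophage-like cells and Foxm1, Incenp and Shcbp1 in fibroblast-like cells were among the higher ones with the smallest p. The higher counts therefore partly follow from how the cells were chosen. In macrophage-like cells (89 chosen, 187 other) 425 of 7567 genes were higher in the chosen cells (5.62%) and 249 lower (3.29%), of which 327 and 249 lie outside the lists. Without MI replicate 2 or 4, 275 and 358 outside genes passed, of which 266 and 338 were among these 576 in the same direction. In fibroblast-like cells (76 chosen, 54 other) 259 of 7587 genes were higher (3.41%) and 145 lower (1.91%), of which 173 and 145 lie outside the lists. Without MI replicate 2, 4 or 5, 200, 164 and 156 passed, of which 160, 153 and 147 were among these 318.

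Depth differed between the compared cells. The chosen cells were deeper on 4 of 5 plates in macrophage-like cells and on all 5 in fibroblast-like cells, with median depths of 10451 to 72666 UMIs for chosen and 13178 to 54112 for other cells. When each cell was thinned to 3000 UMIs before summing, most of the genes called at full depth fell under the filter on low counts and were not tested again, namely 371 of 576 in macrophage-like and 266 of 318 in fibroblast-like cells. Of the 205 and 52 that could be tested, 203 and 49 had the same direction and 24 and 0 passed. Their median absolute log2 difference was 0.53 at full depth and 0.38 thinned in macrophage-like cells, with a median SE of 0.12 and 0.23, and 0.58 and 0.46 in fibroblast-like cells, with a median SE of 0.13 and 0.26. The thinned counts come from the same cells and are no independent check. Thinned, 2 of 652 outside genes passed in fibroblast-like cells, Ckap4 (log2 difference 0.77) and Hmgn2 (1.58), both named after their values were seen, and 0 of these had passed at full depth. In macrophage-like cells 29 of 1430 passed, 20 higher and 9 lower, and 24 of them had passed at full depth. The 20 include chromatin and tubulin genes used in division (2810417H13Rik, Hmgn2, Ssrp1, Tubb5). The 9 lower ones, named after their values were seen, were Mpeg1, Il1b, Ctss, S100a8, Nr4a2, Gpnmb, Smpdl3a, Emr1 and Ppbp, from -0.45 for Ctss to -1.66 for S100a8 on the log2 scale. Of the macrophage lists, 1 of 5 tested phagocytic genes passed, Gpnmb (log2 difference -0.83, SE 0.21, adjusted p = 0.0242 by edgeR). At full depth without the Cd74 cluster 338 outside genes passed, of which 314 were among the 576.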

How the data were processed

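SORT-seq plates of mouse left ventricle were analysed as the whole-number UMI counts per gene and well that the authors deposited. The authors' reads were aligned with BWA to GRCm38 (mm10), per the labels and the study's methods, and the BWA version is not given in the sources used here. The highest count, 4096, is the limit of a UMI of 6 bases, so counts were not corrected for UMI collisions. The 42 genes and all other lists were chosen with earlier results of these data known.

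Mitochondrial genes were left out of depth. Wells with at least 1000 UMIs were clustered (scanpy 1.11.5, leidenalg 0.10.2, 2000 variable genes, 30 components, resolution 1) and named from fixed markers, and doublets were not called. 1 gene of the macrophage lists is not reported here. Cells were thinned to 1000 or 3000 UMIs (seed 11). Counts were summed per plate and class (at least 5 cells) and tested with edgeR 4.0.16 (filterByExpr, TMM, quasi-likelihood, Benjamini-Hochberg over all genes, 0.05), after a check on simulated data. Genes were named by rule: those past the threshold, up to 10 by smallest p, then Mki67, Top2a, Cdk1, Ccnb1, Pcna and Mcm5, and up to 5 per other list and direction. The fibroblast-like comparisons with IR day 1, the endothelial-like comparison of IR day 3 with sham, the stricter call, the interaction, the shallow wells, the marker sums and the fits without or with only the macrophage-like cluster led by Cd74 were added after the data were seen. Alternatives were DESeq2 1.42.0, RLE scaling, no filter, other depth and cell minimums, kept copies, cell cycle genes left in the clustering, cells with other-class markers left out, replicate blocks and single plates left out. Replicate numbers did not pair the plates: correlations of deviations between plates of 1 number were -0.205 to 0.126.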

Additional observations from a re-analysis of the deposited data

Results flagged for a closer look

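Of 30 groups of plates examined for a plate that stands far from the rest, 4 held one, where chance gives about 1 in 20. Endothelial-like cells of day 14 sham replicate 8 had a mitotic level of 17.7 per 10000 UMIs (group median 1.39), on the plate whose macrophage markers in these cells summed to 33.6. Fibroblast-like cells of IR day 1 replicate 3 had a mitotic level of 11 (group median 0.890). Macrophage-like cells of IR day 1 replicate 9 had a mitotic level of 7.98 (group median 1.43). Endothelial-like cells of IR day 1 replicate 3 had a replication level of 6.75 (group median 4.03).

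The change of Pcna from IR day 1 to IR day 3 differed between fibroblast-like and macrophage-like cells by -2.70 on the log2 scale in an interaction test over all genes (edgeR, adjusted p = 0.0109), and did not pass with the macrophage-like cluster led by Cd74 left out (-2.02, adjusted p = 0.611) or alone (-2.80, adjusted p = 0.190). In wells too shallow to count as cells, a median of 0.884 mitotic UMIs per well was found over the MI plates (13 to 18.5 per 10000), above the highest sham plate at 0.111 (sham plates 0 to 3.52 per 10000). The median over the IR day 3 plates, 0.171 per well (0.0732 to 0.409), also lay above it.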

How the results depend on the processing

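Unless named here, counts of calls stayed within 1.5 times and directions of called genes did not turn. The counts below are given without the shares of all genes in the same refits. With DESeq2, 14 genes were called in fibroblast-like cells for MI against IR day 1, 0 in cardiomyocyte-like cells for IR day 3 and 309 in the comparison of macrophage-like cells with and without mitotic genes. With no filter, calls were 7, 36 and 41 in macrophage-like cells (MI against IR day 3, IR day 3 against IR day 1, MI against IR day 1), 40, 2 and 17 in endothelial-like cells (MI against sham, IR day 1, MI against IR day 3), 13, 34 and 8 in fibroblast-like cells (MI against IR day 3, MI against IR day 1, IR day 1 against sham), 3 and 6 in cardiomyocyte-like cells (MI, IR day 3) and 778 in the same comparison of fibroblast-like cells. With at least 10 cells per plate, fibroblast-like calls were 12 (MI against IR day 3), 4 (IR day 3 against IR day 1) and 0 (MI against IR day 1), and cardiomyocyte-like calls at IR day 3 were 2; fibroblast-like IR day 1 against sham and cardiomyocyte-like MI against sham could not be run. Wells of 2000 UMIs gave 0 cardiomyocyte-like calls at IR day 3. With cell cycle genes in the clustering 3 were called in fibroblast-like cells of IR day 1. Without cells that hold markers of another class, calls were 32 and 0 in endothelial-like cells (MI against sham and IR day 3), 9, 11 and 3 in fibroblast-like cells (IR day 3 against IR day 1, MI against IR day 1, IR day 1 against sham) and 0 in cardiomyocyte-like cells of IR day 3. Cells thinned before summing gave 29 and 2 genes for macrophage-like and fibroblast-like cells with against without mitotic genes, and a call at 1000 UMIs gave 196 in the latter. The causes were not tested. With the macrophage-like cluster led by Cd74 left out, an alternative chosen after seeing the data, calls were 10 for MI against IR day 3 and 338 for cells with against without mitotic genes. Against IR day 1, where this leaves 1 plate, the median log2 changes of the members were 2.86 (IR day 3) and 3.41 (MI). For that cluster alone calls were 1, 13 and 1 (MI against IR day 3, IR day 3 and MI against IR day 1). The interaction of Pcna was -2.02 with the cluster left out, and -2.80 for it alone, where it did not pass.

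With the replicate number as a block, calls were 0 in macrophage-like cells (MI against IR day 3), 1 in endothelial-like cells (IR day 3 against sham), 1, 9, 7 and 3 in fibroblast-like cells (MI against IR day 3, IR day 3 against IR day 1, MI against IR day 1, IR day 1 against sham), and 0 and 0 in cardiomyocyte-like cells (MI, IR day 3); the numbers do not pair the plates, with 2 of the same-number correlations over 0.1.

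Shares of cells with mitotic genes depend on the rule. In the order macrophage-like IR day 1, IR day 3 and MI, fibroblast-like IR day 3 and MI, endothelial-like IR day 1, IR day 3 and MI, cardiomyocyte-like IR day 3, neutrophil-like IR day 1 and MI, they were 14.1%, 31.5%, 32.4%, 34.9%, 55.5%, 11.4%, 30.5%, 49.6%, 17.7%, 27.4% and 54.4% with at least 1 gene, 21.0%, 45.4%, 86.6%, 42.1%, 93.5%, 10.6%, 25.5%, 71.2%, 10.9%, 12.1% and 62.8% without thinning, and 6.75%, 31.5%, 32.4%, 45.2%, 58.8%, 13.7%, 22%, 56.0%, 14.1%, 40.0% and 70.0% at 3000 UMIs. With at least 3 genes the MI shares were 12.2% (macrophage-like), 21.6% (endothelial-like) and 2.35% (neutrophil-like). With 5 genes at 3000 UMIs they were 12.7% in MI macrophage-like, 38.1% in IR day 3 fibroblast-like and 20.0% in IR day 1 neutrophil-like cells.

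Leaving out 1 plate gave ranges of 0 to 3, 17 to 22 and 19 to 25 calls in macrophage-like cells (MI against IR day 3, IR day 3 and MI against IR day 1), 13 to 21, 1 to 2, 1 to 5 and 1 to 7 in endothelial-like cells (MI against sham, IR day 1, MI against IR day 3, IR day 3), 1 to 5, 8 to 25, 11 to 24 and 2 to 7 in fibroblast-like cells (MI against IR day 3, IR day 3 and MI against IR day 1, IR day 1 against sham), 0 to 1 in cardiomyocyte-like cells for both MI and IR day 3, and 275 to 672 and 156 to 257 genes for macrophage-like and fibroblast-like cells with against without mitotic genes. Shares of cells with at least 2 mitotic genes ranged over 10.3% to 15.3% and 28.0% to 33.4% in endothelial-like cells (IR day 3, MI), 17.6% to 26.2% and 30% to 37.7% in fibroblast-like cells (IR day 3, MI), 0.517% to 2.56% in cardiomyocyte-like cells of IR day 3, and 16.1% to 18.7% and 14.4% to 23.8% in macrophage-like and neutrophil-like cells of MI. The value without IR day 1 replicate 7 was 2 in endothelial-like cells of IR day 1.

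The log2 changes of some members turned sign. Among genes called in macrophage-like cells this was seen between the Cd74 cluster alone and the cells without it: for MI against IR day 3, Hmgb2 (-1.12 and 1.35), Mcm7 (-0.75 and 1.07), Rrm2 (-0.69 and 1.18), Tk1 (-1.54 and 1.01), Ube2c (-2.92 and 0.57) and Mcm5, and for IR day 3 against IR day 1, Hmgb2 (1.75 and -0.0038). For MI against IR day 3 in macrophage-like cells, Ccnb1 was 0.17 with no filter, 0.32 with 10 cells, 0.034 with copies kept, 0.075 with the block, 0.53 without the Cd74 cluster and -0.20 to 0.22 with 1 plate left out, Pcna was 0.13 with no filter, 0.042 with 10 cells, 0.011 without other-marker cells, 0.078 without the Cd74 cluster and -0.18 to 0.11 with 1 plate left out, and in the Cd74 cluster alone Mcm5 was -0.41, Mki67 -1.50, Top2a -1.80 and Cdk1 -1.92. For IR day 1 against sham day 1 in endothelial-like cells, Mki67 was -0.69 with the block. For MI against IR day 3 in endothelial-like cells, Pcna was 0.18 with no filter, 0.68 without other-marker cells, 0.25 with the block and -0.48 to 0.77 with 1 plate left out. For MI against IR day 3 in fibroblast-like cells, Cdk1 was -0.12 to 0.74 with 1 plate left out, Ccnb1 was 0.031 with DESeq2, 0.11 with no filter, 0.24 without other-marker cells, 0.81 with the block and -0.37 to 0.89 with 1 plate left out. For IR day 3 against IR day 1 in fibroblast-like cells, Top2a was -0.033 with 10 cells. For MI against IR day 1 in fibroblast-like cells, Pcna was 0.017 with no filter and -0.26 to 0.12 with 1 plate left out, Mcm5 was -0.068 with the block. For IR day 1 against sham day 1 in fibroblast-like cells, Mki67 was -1.84 to 1.99 with 1 plate left out, Top2a was -1.77 to 7.29 with 1 plate left out, Ccnb1 was -0.50 with DESeq2 and 0 to 3.88 with 1 plate left out.

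Few cells limit the sham side in fibroblast-like cells: the 3 day 1 sham plates hold 5, 7 and 9 of them, and 20 of the 33 tested genes had 0 UMIs there. Of the 5 MI plates 4 are deeper than every other plate, and for these depth and MI cannot be told apart in unthinned values.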
